A study of Mus musculus with 4 samples.

Results

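The 9 annexin genes described here are Anxa1, Anxa2, Anxa3, Anxa4, Anxa5, Anxa6, Anxa7, Anxa8 and Anxa11. They were chosen by symbol from the 25965 genes of the deposited table, and all 9 were found in it. The choice was made with earlier results of these data known, and left out 3 further annexin genes of the table. The table holds mRNA sequencing of 4 libraries of vascular smooth muscle cells grown in culture; in the artery these cells form the media and set its tone. The donors were male C57Bl/6 mice, wild-type and 8 to 14 weeks old, and cells from the medial layer of the aorta were grown in DMEM with serum through 3 to 5 passages. The values thus describe cells in culture and not the vessel. All 4 libraries form 1 group, no treatment or second genotype was measured here, and the labels do not say whether the libraries came from separate mice or cultures. The spread between libraries may therefore be partly technical.

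Annexins are calcium-dependent proteins that bind acidic phospholipids such as phosphatidylserine on the cytosolic face of membranes. They share a conserved core and differ in the N-terminal tail, through which several of them bind small S100 proteins. In vascular cells they are known for membrane repair, for vesicle traffic, for the assembly of plasminogen activators at the cell surface, and, in the case of Anxa2, Anxa5 and Anxa6, as components of the vesicles that mineralize matrix.

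The libraries held 40342561 to 56793195 reads on genes, as recovered from the deposited log2 values, which are log2 read counts scaled by a constant of each library. A gene counted as detected when no library gave it a log2 value under 0, which took 22 to 30 reads, and 47.4% of all genes were detected. The smooth muscle identity was checked with 7 markers, of which 6 were detected. The seventh, the coactivator gene Myocd, had 12 to 53 reads. The summed scaled level of these markers was 7914, 3623, 11532 and 16268 in libraries 1 to 4, lowest in library 2. That of 6 adventitial fibroblast markers was 777, 611, 83.6 and 59.4, higher in libraries 1 and 2, with 5 of 6 genes detected. Proliferation markers summed to 441, 750, 209 and 263, with 4 of 4 detected. Of 9 leukocyte markers 2 were detected (summed level 13.1 to 60.5, with S100a9 at 0 reads in every library), of 6 endothelial markers 3 (15.99 to 47.7), of 5 mesothelial markers 3 (62.6 to 85.8), and of 6 epithelial markers 0 (1.14 to 2.45, with Krt14 and Cldn4 at 0 reads). With bulk RNA, fewer cells of a type and less RNA per cell cannot be told apart.

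All 9 members were detected, beside 47.4% of all genes. The 3 annexin genes left out of the choice were not detected, so this count cannot be read as a result about the family. The median log2 value of the 9 members was 9.13 ± 0.32 (SD over libraries, n = 4), against 5.11 ± 0.31 for all detected genes and 0.30 ± 0.36 for all genes. Together they took 0.505%, 0.548%, 0.414% and 0.478% of the recovered reads in libraries 1 to 4. Anxa2 alone held 31.3%, 40.5%, 31.7% and 29.7% of the annexin reads, and Anxa2, Anxa5, Anxa1 and Anxa6 were the 4 genes with the most reads. The lowest member, Anxa8, still had 777 to 1549 reads in a library, so no member was limited by counting depth.

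Anxa2, which forms a complex with S100a10 at the plasma membrane and binds plasminogen and its activator, had log2 values of 11.58, 12.06, 11.23 and 11.42 in libraries 1 to 4 (chromosome 9, 69453620 to 69491795, GRCm38, as all positions here). Library 2 was the highest, and the mean of 11.57 ± 0.35 lay above 99.7% of all genes. Anxa5, the phosphatidylserine-binding protein used as a stain for dying cells and known as an anticoagulant, had 11.09, 11.22, 10.86 and 11.08 (chromosome 3, 36448925 to 36475843). It was the least variable member on the deposited scale, with a mean of 11.06 ± 0.15; with median-ratio size factors its SD was 0.19, above those of Anxa7 and Anxa3 (0.14 each). Anxa1, the glucocorticoid-regulated mediator that acts through formyl peptide receptors to resolve inflammation, had 11.01, 10.72, 9.89 and 10.48 (chromosome 19, 20373428 to 20390944). Its mean was 10.52 ± 0.48, the largest spread of the family on the deposited scale, with library 3 the lowest. Anxa6, a smooth muscle annexin with a tandem copy of the core and a coding part of 2019 bases against 957 to 1509 bases in the other members, had 10.12, 10.17, 10.47 and 10.78 (chromosome 11, 54979108 to 55033445). Its mean was 10.38 ± 0.31, and libraries 3 and 4 lay above libraries 1 and 2.

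Anxa3, a cytosolic annexin abundant in neutrophils, had log2 values of 9.52, 9.09, 8.73 and 9.17 (chromosome 5, 96793385 to 96845968; mean 9.13 ± 0.32). Anxa7, or synexin, first described for fusing secretory granules, had 8.27, 8.01, 7.90 and 8.00 (chromosome 14, 20455261 to 20480133; mean 8.04 ± 0.16). Anxa3 and Anxa7 were both highest in library 1 and lowest in library 3. Anxa11, which tethers RNA granules to lysosomes and binds S100a6, had 7.08, 6.63, 7.30 and 7.37 (chromosome 14, 25842183 to 25886804; mean 7.09 ± 0.33), with library 2 the lowest. Anxa4, best known from secretory epithelia, had 6.95, 6.56, 6.59 and 6.75 (chromosome 6, 86736840 to 86793584; mean 6.71 ± 0.18). Anxa8, an annexin of stratified epithelia and endosomes, had 5.66, 5.66, 5.14 and 5.72 (chromosome 14, 34085981 to 34100571; mean 5.55 ± 0.27). Even this lowest member lay above 79.9% of all genes and 57.7% of detected genes, and library 3 stood below the other 3.

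The members can be told apart by their reads. The longest identical run between transcripts of any 2 members was 18 bases (GENCODE M21). No 50-base stretch of Anxa1, Anxa5, Anxa6, Anxa7 or Anxa8 transcripts occurred in transcripts of another gene, and 1.35% to 1.80% of stretches did for Anxa2, Anxa3 and Anxa4. Anxa11 was the exception, with 16.2% of its stretches shared, most of them with the unprocessed pseudogenes Gm2260 and Gm2274, so its values are the least certain of the family. Anxa2 shares 98 exon bases with Gm16144 on the opposite strand, whose reads reached 48 at most. Also on the opposite strand, Anxa11 shares 113 exon bases with Anxa11os and Anxa4 shares 75 with Gm44036. Anxa3 shares 112 with Gm42603 on the same strand. Anxa11os, Gm44036 and Gm42603 were not found under these names in the deposited table, so their reads are not known. Whether the counting used strand is not given in the sources used here.

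Levels of different genes were compared after division by the length of all exons of a gene merged, as log2 scaled reads per kilobase. On this scale the order was Anxa5 (10.23), Anxa2 (9.67), Anxa1 (8.98), Anxa6 (8.83), Anxa3 (7.26), Anxa7 (5.46), Anxa11 (5.05), Anxa8 (4.64) and Anxa4 (4.50). With merged exons the family split into 4 genes at or above 8.83, Anxa3 between, and 4 genes at or below 5.46. Of the 36 pairs of members, 33 had 1 sign of the difference in 4 of 4 libraries, each by more than the SD of the difference. The neighbours that did not differ beyond their spread were Anxa1 and Anxa6 (0.15 ± 0.70), Anxa11 and Anxa8 (0.41 ± 0.49), and Anxa8 and Anxa4 (0.14 ± 0.25). These 3 calls hold for merged exons: with the other lengths the mean was 0.14 to 2.14 for Anxa1 minus Anxa6 and 0.84 to 1.55 for Anxa11 minus Anxa8. Each pair of 1 sign had p = 0.125 in an exact permutation test that flips the signs of the library differences (two-sided; adjusted p = 0.139 by Benjamini-Hochberg over 39 pairs). No smaller p can come from 4 libraries, so a threshold of 0.05 was out of reach for every pair.

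Which gene led depended on the length used. Anxa5 exceeded Anxa2 by 0.56 ± 0.23 per kilobase of merged exons, but lay below it by the longest protein-coding transcript (-0.77), by the longest transcript (-0.11) and with no division by length (-0.51). Anxa4 was lowest only with merged exons, and by every other length Anxa8 was. Anxa6 exceeded Anxa3 by 1.57 ± 0.52, and lay below it by the median transcript length (-0.45). By that length the split was not seen, with Anxa3 at 9.53, Anxa6 at 9.08, Anxa7 at 8.44 and Anxa4 at 6.68.

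**Figure D1:**
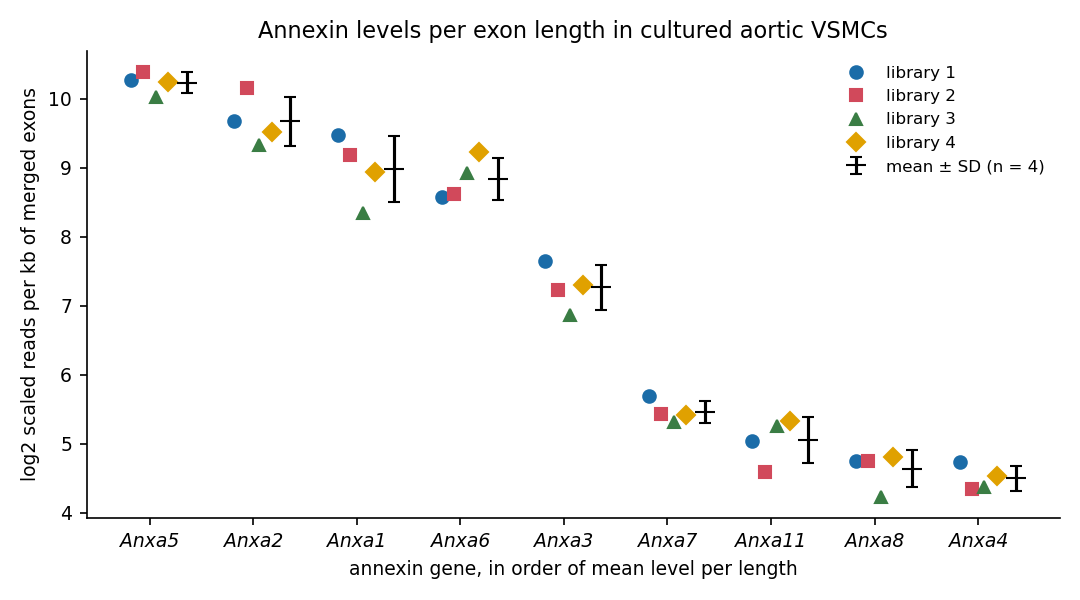
Log2 scaled reads per kilobase of merged exons for the 9 annexin genes, in order of their mean; points are the 4 libraries and the bar gives the mean ± SD (n = 4). Anxa5, Anxa2, Anxa1 and Anxa6 have means of 8.83 to 10.23, Anxa3 of 7.26, and the other 4 genes of 4.50 to 5.46.

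Promoter windows of RefSeq (GRCm38.p6, 250 bases before to 50 bases after a start) were at hand for 7 of the 9 genes. Those of Anxa2 and Anxa1, both among the 3 highest genes per length, and of Anxa8, the member with the fewest reads, are shown up to the start, 5′ to 3′ on the strand of the gene. Capitals mark matches to TATAAA (the TATA hexamer), GGGCGG (a GC box) and TGANTCA (an AP-1 element), on either strand; no matches overlap. The windows are chr9:69453433-69453682 on the plus strand, chr19:20390672-20390921 on the minus strand and chr14:34085729-34085978 on the plus strand. The deposited position of Anxa2 begins inside its window. That of Anxa1 begins upstream of its window, at 20390944, so the printed Anxa1 stretch lies within the deposited span of the gene.
Anxa2: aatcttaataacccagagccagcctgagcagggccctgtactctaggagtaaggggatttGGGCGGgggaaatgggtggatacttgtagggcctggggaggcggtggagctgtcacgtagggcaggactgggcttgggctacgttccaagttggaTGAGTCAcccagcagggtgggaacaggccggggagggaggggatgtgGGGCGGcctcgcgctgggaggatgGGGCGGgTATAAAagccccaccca
Anxa1: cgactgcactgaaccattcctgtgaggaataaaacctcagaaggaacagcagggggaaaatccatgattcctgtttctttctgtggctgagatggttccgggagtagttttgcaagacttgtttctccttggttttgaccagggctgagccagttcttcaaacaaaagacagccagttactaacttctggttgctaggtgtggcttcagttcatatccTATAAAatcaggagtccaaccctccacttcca
Anxa8: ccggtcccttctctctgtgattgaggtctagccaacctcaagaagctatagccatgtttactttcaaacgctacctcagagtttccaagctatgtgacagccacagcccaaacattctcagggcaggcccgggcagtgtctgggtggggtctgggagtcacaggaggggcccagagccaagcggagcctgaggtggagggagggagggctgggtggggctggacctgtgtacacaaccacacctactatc

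The Anxa2 window held TATAAA beginning 17 bases before the start, 3 GC boxes and 1 AP-1 element, and the Anxa1 window held TATAAA 32 bases before the start and no GC box. None of the searched motifs matched in the Anxa8 window. The window of Anxa5, the highest gene per kilobase of merged exons, held neither TATAAA nor GGGCGG. Among all 32851 windows of this length, 13.6% held TATAAA, 35.7% GGGCGG, 37.4% CCAAT and 7.81% TGANTCA, and 1.63% held a CArG box, the element bound by serum response factor. CCAAT was in none of the 9 annexin windows (2 each for Anxa4 and Anxa7), and a CArG box only in that of Anxa5, beginning 25 bases after the start. The ratio of observed to expected CpG ran from 0.18 (Anxa1) to 0.97 (Anxa11), with a median of 0.38 over all windows. It was 0.20 for Anxa8, 0.46 for Anxa2 and 0.59 for Anxa5. The 2 windows of Anxa4 had 0.64 and 0.23, and those of Anxa7 had 0.29 and 0.70, so the value of these genes depends on the start. A match is a string of letters and was not tested for binding.

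**Figure D2:**
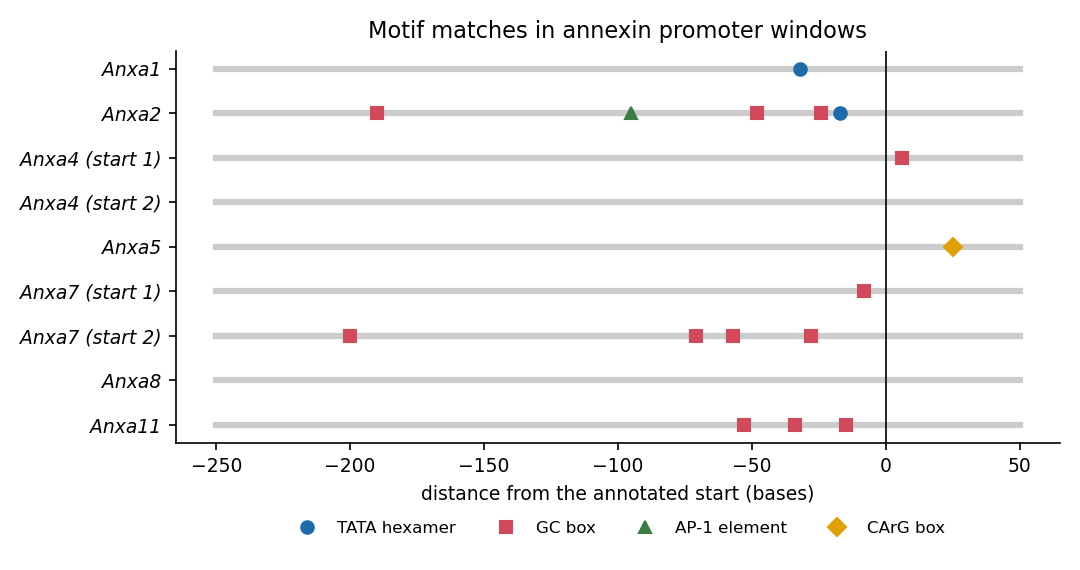
Matches to 4 motifs in the RefSeq promoter windows of 7 annexin genes, by distance in bases from the annotated start; grey bars are the windows and markers give where a match begins. TATA hexamers are in the windows of Anxa1 and Anxa2, and Anxa8 has no match.

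Between libraries, none of the 9 members had an SD above 0.5 on the log2 scale, a level that 40.5% of all detected genes passed. Outside this choice, Anxa9 and Anxa13 had SDs of 1.18 and 2.23, but neither was detected. The SDs of the 9 members ran from 0.15 (Anxa5) to 0.48 (Anxa1), with a median of 0.31 against 0.43 over all detected genes. Among detected genes within 1 log2 unit of the mean of a member, the median SD ran from 0.30 to 0.40. Against these, Anxa5 (0.15 against 0.33), Anxa7 (0.16 against 0.31), Anxa4 (0.18 against 0.34) and Anxa8 (0.27 against 0.40) were below, Anxa6 (0.31 against 0.34) was slightly below, and Anxa1 (0.48 against 0.33) was above. Anxa2 (0.35 against 0.35), Anxa3 (0.32 against 0.30) and Anxa11 (0.33 against 0.33) were close to theirs.

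**Figure D3:**
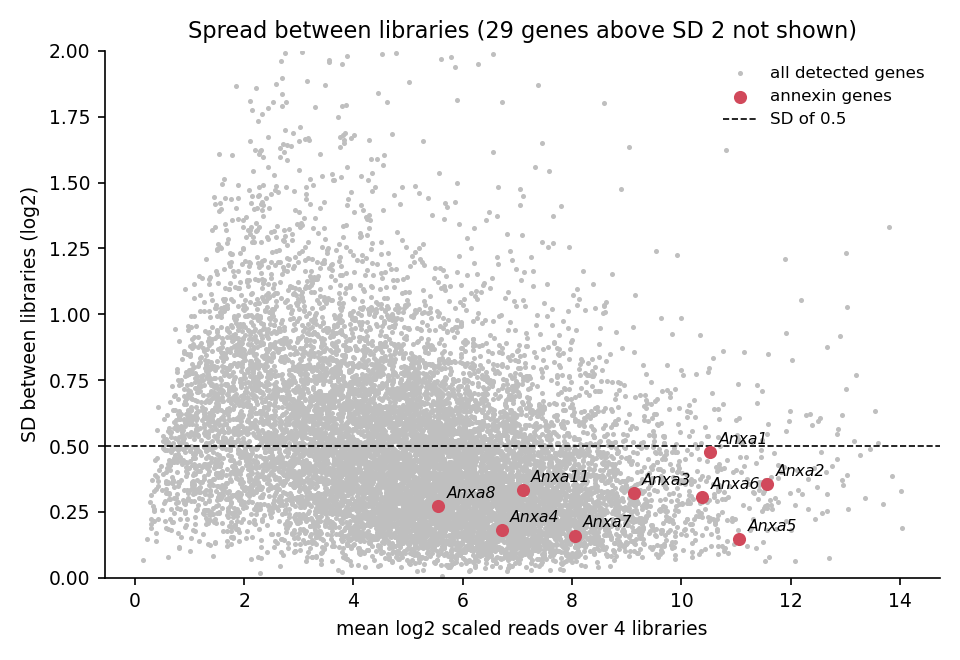
SD between the 4 libraries against the mean log2 scaled reads for all detected genes (grey) and the 9 annexin genes (red); the dashed line is an SD of 0.5. The annexin genes lie between 0.15 (Anxa5) and 0.48 (Anxa1), below the line.

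The scaling of the libraries matters for this count. Median-ratio size factors shifted all detected genes by -0.32, -0.10, 0.30 and 0.12 log2 units in libraries 1 to 4. With them, Anxa6 and Anxa11 passed an SD of 0.5 (both 0.53), beside 30.8% of all detected genes, and Anxa1 was at 0.23. On the deposited scale 6 of 9 members were lowest in library 3, and with median-ratio scaling 1 of 9, Anxa1. The library with the highest and that with the lowest value were the same under both scalings for Anxa1 (highest in library 1, lowest in library 3) and Anxa6 (highest in library 4, lowest in library 1). Under both, Anxa2 was highest in library 2, and Anxa11 and Anxa4 were lowest there. Anxa8 was highest in library 4 under both. Anxa3, Anxa5 and Anxa7 kept neither their highest nor their lowest library.

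**Figure D4:**
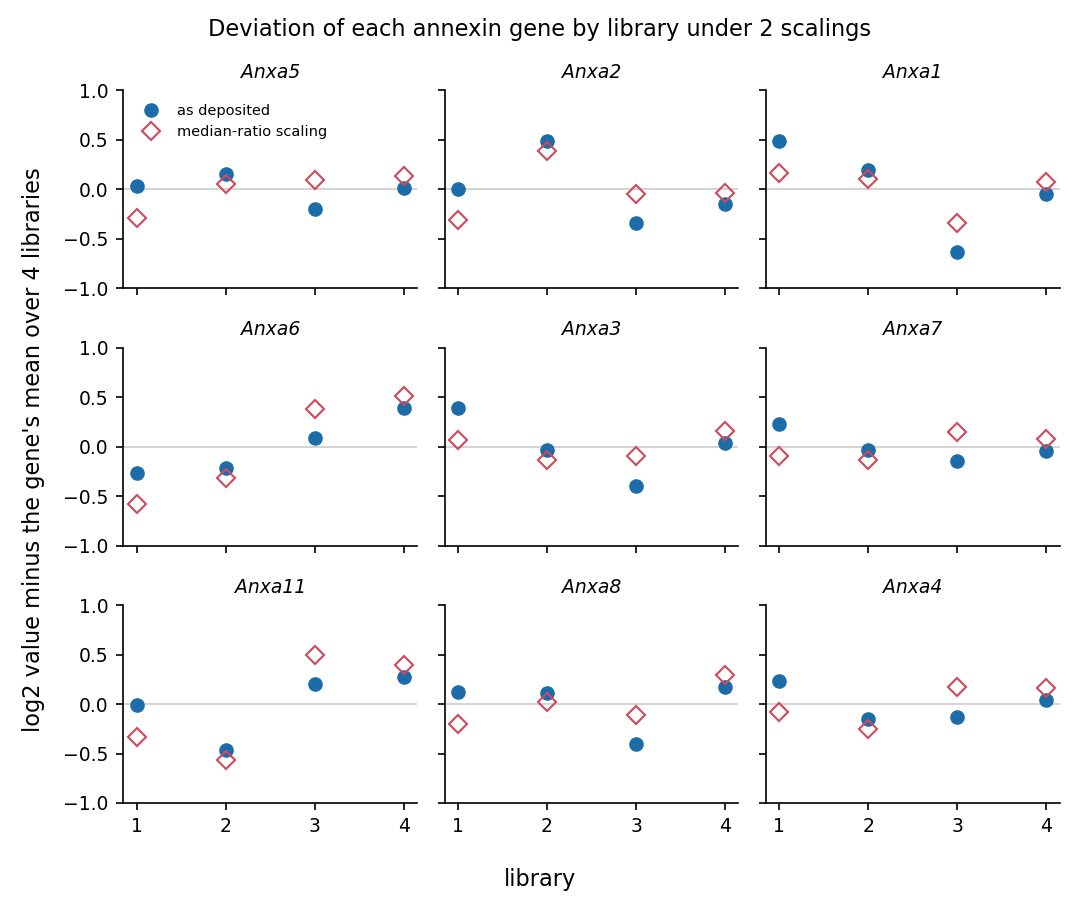
Log2 value minus the mean of the gene over the 4 libraries for each annexin gene, as deposited (filled circles) and with median-ratio scaling (open diamonds). Anxa1 is lowest in library 3 and Anxa6 highest in library 4 under both, while Anxa5 changes its lowest library.

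Differences within a library do not depend on its scaling. Anxa1 minus Anxa6 was 0.90, 0.56, -0.58 and -0.29 log2 units per kilobase in libraries 1 to 4, so Anxa1 was the higher of the pair in libraries 1 and 2 and the lower in libraries 3 and 4. The order within a library holds for merged exons, and the change from library to library for any length. Anxa1 minus Anxa11 was 4.43, 4.60, 3.10 and 3.61 (3.94 ± 0.71), larger in libraries 1 and 2, while Anxa6 minus Anxa11 had a smaller spread (3.79 ± 0.22). Anxa7 minus Anxa11 was 0.65, 0.84, 0.07 and 0.10, again larger in the first pair of libraries. By summed level, the fibroblast and proliferation markers were higher, and the smooth muscle markers lower, in libraries 1 and 2 than in libraries 3 and 4. The 9 leukocyte markers summed to 60.5, 45.0, 13.5 and 13.1 and were higher in libraries 1 and 2 too. The endothelial sum (47.7, 30.6, 43.2 and 15.99) and Myocd (51, 14, 12 and 53 reads) did not split this way. Pecam1, Tie1 and Vwf carried the endothelial sum, and none of them split so. Cdh5 (log2 values of 2.82, 1.43, 1.03 and -0.23), Kdr and Tek were higher in libraries 1 and 2, but were not detected. The mesothelial sum was 72.2, 62.6, 85.8 and 74.9, slightly higher in libraries 3 and 4. It was carried by Upk3b and Krt19, neither of which split by these pairs of libraries. Msln (61, 110, 28 and 31 reads) and Lrrn4 (52, 33, 0 and 0) had more reads in libraries 1 and 2. Wt1 had reads in library 1 only. The part of the cell mixture in the annexin differences was not tested.

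Of a list of 6 genes of S100 proteins that bind annexins, all were detected (6 of 6, beside 47.4% of all genes). The list was chosen with earlier results known and does not hold every S100 gene. S100a8 and S100a9, counted among the leukocyte markers, were not detected. S100a10, the light chain of the Anxa2 complex, had log2 values of 8.61, 9.38, 8.70 and 8.96 (8.91 ± 0.34), highest in library 2 as Anxa2 was. Per kilobase Anxa2 exceeded S100a10 by 1.35, 1.06, 0.91 and 0.84, a mean of 1.04 ± 0.23 with 1 sign in 4 of 4 libraries (exact sign-flip permutation p = 0.125, adjusted p = 0.139). The mean was between 0.93 and 2.66 with the other lengths.

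S100a11, the partner of the Anxa1 tail, had 8.61, 8.26, 7.45 and 7.86 (8.04 ± 0.50), with the libraries in the same order as for Anxa1. The difference of Anxa1 and S100a11 per kilobase was -0.11, -0.04, -0.07 and 0.10, a mean of -0.03 ± 0.09 (exact sign-flip permutation p = 0.5, adjusted p = 0.513). The level of the difference depended on the length, and was 0.77 by the longest protein-coding transcript, but its SD did not. Of 12305 other detected genes, 1.42% followed Anxa1 across the libraries with an SD of the difference no larger than that of S100a11. The same share was 8.66% for Anxa2 and S100a10 (SD 0.23), and 63.5% for Anxa11 and S100a6 (SD 0.70). With 4 libraries these shares are descriptions of profiles and not evidence of shared control.

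S100a6, or calcyclin, which binds Anxa11, was far above it, with 13.88, 14.36, 13.44 and 13.74 (13.86 ± 0.39), and Anxa11 minus S100a6 per kilobase was -8.36 ± 0.70. S100a4, another Anxa2 ligand, had 12.93, 13.43, 12.93 and 12.88 (13.04 ± 0.26). S100a1 had 8.29, 8.83, 9.31 and 9.44 (8.97 ± 0.52). S100b, which can bind Anxa6, had 6.59, 6.68, 8.74 and 7.96 (7.49 ± 1.04). Both were higher in libraries 3 and 4, as Anxa6 was.

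**Figure D5:**
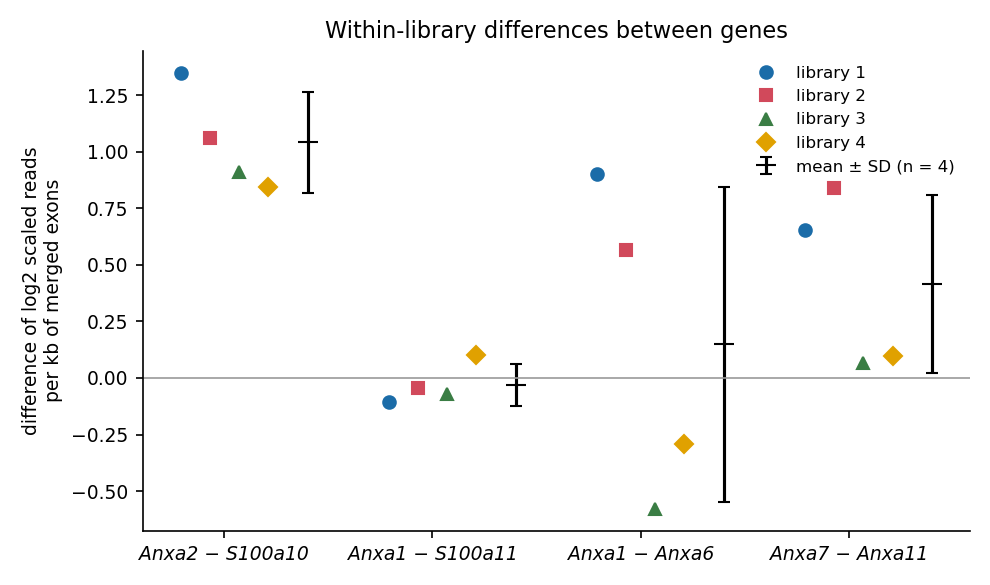
Differences between genes within each library, in log2 scaled reads per kilobase of merged exons; points are the 4 libraries and the bar gives the mean ± SD (n = 4). Anxa1 minus S100a11 stays between -0.11 and 0.10, and Anxa1 minus Anxa6 is above 0 in libraries 1 and 2 and below 0 in libraries 3 and 4.

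The other 3 annexin genes of the table were not detected. Anxa9 had 159, 141, 21 and 127 reads, and missed the threshold in library 3 alone, at a log2 value of -0.07. It was the 1 gene of these 3 that reached the threshold in at least 1 library, as 54.6% of all genes did. Anxa13, an annexin of the gut epithelium, had 0, 0, 11 and 12 reads, with exact Poisson 95% intervals of 5.49 to 19.7 around 11 and 6.20 to 20.96 around 12. Anxa10 had 0 reads in each library, which allows up to 3 reads; intervals and this floor cover counting error only.

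Genes of the pathways in which annexins act were counted in lists. Of 7 plasminogen activation genes 6 were detected, beside 47.4% of all genes, and that share also stands beside the counts of the other lists. Plat, the tissue activator that binds Anxa2, was the most variable at 4.93, 5.08, 2.42 and 3.04 (3.87 ± 1.34), higher in libraries 1 and 2. Plg, the gene of plasminogen itself, had 0 reads in every library. Neither formyl peptide receptor gene was detected; Fpr1 had 3 reads in library 1 and none elsewhere, and Fpr2 had none.

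All 15 membrane repair genes were detected, and 14 at a threshold of 1. Ahnak, a giant scaffold that binds the Anxa2 complex, led at 11.85, 10.83, 10.94 and 10.76 (11.10 ± 0.51). Capn2, a calpain protease subunit, was the most variable at 9.80, 9.18, 8.05 and 8.80 (8.96 ± 0.73), with libraries 1 highest and 3 lowest, and Trim72, the muscle repair gene, the lowest at 1.14 ± 0.37. Of 10 genes of phosphatidylserine exposure 9 were detected, from Mfge8, the milk fat globule protein that bridges phosphatidylserine and integrins (10.36, 10.77, 11.49 and 11.42; 11.01 ± 0.54), down to the flippase gene Atp8a1, which was not detected (22, 28, 17 and 4 reads). The scramblase family gene Plscr1 was the most variable of the 9 detected, at 3.65 in library 1, its highest, with a mean of 2.33 ± 1.13.

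Among 9 glucocorticoid and eicosanoid genes 7 were detected. Ptgs1, the cyclooxygenase of prostaglandin synthesis, was both the highest and the most variable of the 7 detected, at 6.74, 8.38, 6.95 and 7.37 (7.36 ± 0.73). Alox15, a lipoxygenase gene, had 0 reads in every library. Of 9 genes of matrix vesicle mineralization 8 were detected. Mgp, the inhibitor of arterial calcification, led at 10.49, 10.25, 10.38 and 10.32 (10.36 ± 0.10). Smpd3, a sphingomyelinase of vesicle release, was the most variable of the 8 detected, at 7.17, 6.04, 7.95 and 7.37 (7.13 ± 0.80). Alpl, the phosphatase that starts mineral formation, had 16, 58, 0 and 0 reads. The median of the mean log2 values was 6.73 for plasminogen activation, 8.74 for membrane repair and 5.26 for phosphatidylserine exposure. It was 5.64 for glucocorticoid and eicosanoid genes and 6.04 for mineralization. Beside these, the median level was 5.11 for all detected genes and 0.30 for all genes. An SD above 0.5, passed by 40.5% of detected genes, was found for 4, 3, 6, 4 and 3 genes of these lists in that order, and for 3 of the 6 S100 genes.

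Genes with profiles close to a member were named for Anxa1, Anxa6 and Anxa11, a choice made after the values were seen, since no member passed an SD of 0.5 on the deposited scale. Likeness was the root mean square difference of the log2 values of the 4 libraries after each gene was centred on its mean. The comparison covered 7791 detected genes with a mean of 4 or more. Numbered gene models, Rik transcripts, mitochondrial and RNA genes and annexins were left out. Closest to Anxa1 were Atg5, an autophagy gene, at 0.00975 and Vps33b, an endosomal tethering gene, at 0.0214. Ripk2 (0.0352) and Lactb (0.0355) were closest to Anxa6, and Phyhd1 (0.0406) and Atp6v0a1, a subunit of the vacuolar proton pump (0.0499), to Anxa11. Within 0.1 lay 271 of the 7791 genes for Anxa1, 49 for Anxa6 and 29 for Anxa11. A close profile over only 4 libraries says nothing of shared function.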

How the data were processed

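Per the labels' protocols, total RNA of cultured aortic medial cells was made into libraries with the TruSeq Stranded mRNA kit. The submitters' processing notes name Trim Galore, cutadapt, TopHat and GRCm38, without versions. How reads were counted, on which annotation and with what strand setting, is not given in the sources used here. The authors deposited log2 values per gene, which from the values are log2 of whole reads times a constant of each library, not divided by length; a gene with no read carries 0.9 read. Dividing by the value of 1 read gave whole reads (within 0.05) for 99.8% to 99.9% of values. Whether 1 fragment could give several of these reads is not given. The 4 columns were matched to the libraries by name.

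Here, values were used as deposited. SD above 0.5 was called variable. Exon lengths, transcripts and strands came from GENCODE M21 (GRCm38), matched by symbol and overlapping position. Differences within libraries were tested by an exact permutation of their signs (two-sided, 16 arrangements), and the steps were tested on simulated data. Named were all members, the other annexins, the S100 partners, and of each other list the highest, the lowest and the most variable detected gene; 1 of these genes is not reported here. The members and lists were chosen with earlier results of these data known. Alternatives were other thresholds, scalings, lengths and leaving out each library; the length of the longest protein-coding transcript was added after the data were seen. Python 3.11.15, numpy 2.4.6, pandas 2.3.3, scipy 1.17.1 and matplotlib 3.10.9 were used.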

Additional observations from a re-analysis of the deposited data

Results flagged for a closer look

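In 5 of 38 values tested, 1 library lay far from the other 3 by Dixon's ratio (the gap to the nearest library over the whole range); chance gives about 1 in 20. These ratios are on the deposited scale. Anxa8 was low in library 3 (5.14, against 5.66 to 5.72 elsewhere; ratio 0.90). Anxa9 was low in the same library (-0.07, against 2.11 to 2.45; ratio 0.865). S100a4 was high in library 2 (13.43, against 12.88 to 12.93; ratio 0.904), and Ahnak high in library 1 (11.85, against 10.76 to 10.94; ratio 0.837). Atp8a1 was low in library 4 (-2.88, against -0.40 to -0.05; ratio 0.874), with 4 reads there. With median-ratio scaling, added after the data were seen, the ratio was 0.553 for Anxa8, 0.539 for S100a4, 0.377 for Ahnak and 0.759 for Atp8a1, none of which would be listed here, and 0.950 for Anxa9, which would.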

How the results depend on the processing

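All 9 members were detected at log2 thresholds of -1, 1 and 2, with median-ratio scaling and without each library. The number with an SD above 0.5 was 0 as reported, 2 with median-ratio scaling and 0 to 1 without 1 library: Anxa1 passed without library 2 and without library 4, beside 43.8% and 46.0% of detected genes. With an SD above 0.25 it was 6, beside 79.0% of detected genes, and above 1 it was 0. The share of reads averaged 0.486%, or 0.323% without Anxa2 and 0.694% with the 100 highest other genes left out of the total; both follow from what was removed. Anxa5 minus Anxa2 turned from 0.56 to -0.11 (longest transcript), -0.51 (no length) and -0.77 (longest protein-coding transcript), Anxa6 minus Anxa3 to -0.45 (median transcript length), and Anxa8 minus Anxa4 from 0.14 to -0.68, -1.76, -1.16 and -1.05 (longest, median, no and protein-coding length). Anxa1 minus S100a11 turned from -0.03 to 0.77 (longest and protein-coding transcript), 2.20 (median) and 2.48 (no length), so its sign depended on the length. Anxa1 minus Anxa6 ranged from -0.10 to 0.39 without 1 library, negative without library 1. Of the other annexins, 1 (Anxa9) reached the threshold in at least 1 library. In all, 171 of the recomputed values were counted as unchanged, 4 as weaker, 7 as moved and 13 as reversed. For a difference between genes, unchanged refers to its sign and not to whether it exceeded its spread. The mean level of a gene over the 4 libraries cannot change with median-ratio scaling as done here, so those values were unchanged by construction. No paired analysis was possible because all libraries belong to 1 group, with no second group to pair them with; differences between genes were taken within libraries.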
